A study of Drosophila melanogaster with 15 samples.

Results

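retinin and Crys encode proteins of the corneal lens, the transparent cuticle over each facet of the Drosophila compound eye. They were taken from the deposited count tables by gene symbol, and are 2 of the 15682 genes listed there. retinin was found under its own symbol. No row is called Crys. The row called Cry was used for it, because RefSeq gives Cry as an older name of 2 genes only, Crys and cryptochrome, and cryptochrome has a row of its own under cry. Every value given for Crys rests on that assignment.

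The lens is secreted late in pupal development by the cone cells and primary pigment cells, which lie above the photoreceptors, and it is built of chitin and a small set of abundant proteins. Crys (drosocrystallin) is a lens protein with a chitin-binding domain of the kind found in insect cuticle proteins. Retinin coats the outer lens surface, where together with wax it forms the nanostructures that reduce reflection. Cpr66D and Cpr72Ec, chitin-binding cuticle proteins, are the other abundant proteins described in the Drosophila lens, so these 4 genes were followed side by side.

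The libraries were 15 samples of Drosophila melanogaster total RNA in 5 groups of 3, all with a w1118 background, and the labels name the tissue as dissected skeletal muscle. The groups were dpp RNAi construct 1, dpp RNAi construct 2, control RNAi, dpp overexpression and control. The product of dpp, Decapentaplegic, is a secreted BMP ligand with many roles in growth and patterning, and in RNAi a double-stranded RNA directs the breakdown of the transcript it matches. The driver of the transgenes, the age of the flies and what the control RNAi targets are not given in the sources used here, and the treatment label reads RNAi in every library. Whether replicates came from separate animals is not labelled, so p-values measure only the spread between these samples, which may be technical.

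The summed gene counts of a library ran from 11244899 to 56290808. They were lowest in the libraries labelled dpp RNAi, at 11244899 to 22400963. dpp itself was at 31.5 ± 3.02 CPM (counts per 1000000 gene counts, TMM-scaled; mean ± SD, n = 3 here and in every group below) in control RNAi. It was at 32.0 ± 1.52 CPM in the libraries labelled construct 1 and at 31.3 ± 2.2 CPM in those labelled construct 2. A lower level of dpp was thus not detected in either (log2 fold changes 0.02 ± 0.13 (SE) and -0.01 ± 0.12, adjusted p = 0.942 and 0.951, edgeR), and both are called by their labels here. With dpp overexpression dpp stood at 66.8 ± 13.4 CPM against 33.5 ± 1.61 CPM in control (log2 fold change 1.00 ± 0.11, adjusted p = 1.39e-05, edgeR). The library codes carry a number block, 47 in both dpp RNAi groups, 18 in control RNAi and 43 in dpp overexpression and control. Should it mark a batch, its effect and that of the group cannot be told apart where the libraries labelled dpp RNAi are compared with control RNAi or control. Comparisons within a block are construct 1 with construct 2 and dpp overexpression with control.

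The label skeletal muscle was checked against marker genes. The 25 photoreceptor genes followed made up 7.73 to 10.09% of the scaled counts of a library, led by the major rhodopsin gene ninaE, whose group means lay between 33056 and 39125 CPM. The 22 muscle genes made up 0.51 to 1.54%. All 15 libraries thus held more RNA of the listed photoreceptor genes than of the listed muscle genes, and no photoreceptor or muscle gene of the lists was at 0 in any group. Every library therefore held RNA of eye cells, which the label skeletal muscle does not name.

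retinin was among the more abundant transcripts, ranked 354th of 15682 by mean CPM, and its level separated the libraries labelled dpp RNAi from all others. In control RNAi the libraries gave 611, 544 and 549 CPM, and in control 540, 610 and 632 CPM. The libraries labelled construct 1 gave 267, 282 and 282 CPM, and those labelled construct 2 gave 277, 252 and 266 CPM. With dpp overexpression the values were 563, 544 and 868 CPM. The highest of the 6 libraries labelled dpp RNAi was thus at 282 CPM and the lowest of the other 9 at 540 CPM, so these sets do not overlap. The same split divides number block 47 from blocks 18 and 43. How many of all tested genes separate in this way was not counted, here or for the separations given below. These values rest on 3128 to 33243 counts per library. The exact 95% binomial interval had a half-width of 1.08 to 3.52% of the value. It covers counting error only and not the spread between libraries. Where PCR copies of a molecule were counted as separate reads, it is too narrow.

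**Figure D1:**
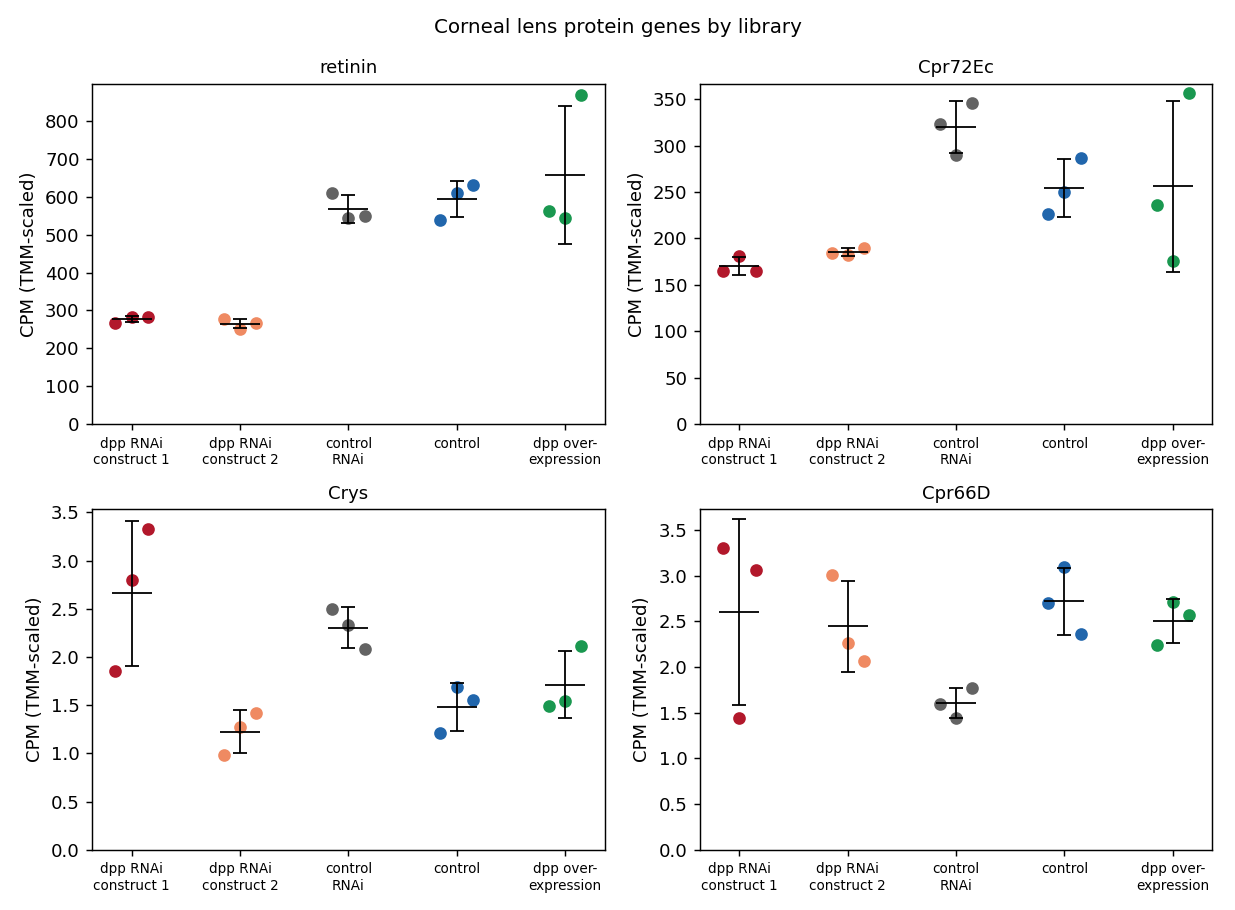
Levels of the 4 corneal lens protein genes in each of the 15 libraries, in TMM-scaled CPM (vertical axes start at 0), by group. Points are libraries, horizontal bars are group means and error bars are 1 SD; the retinin values of the libraries labelled dpp RNAi lie at 252 to 282 CPM, under all others.

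retinin fell to 48.7% of the control RNAi mean in the libraries labelled construct 1 (277 ± 8.54 against 568 ± 37.2 CPM; log2 fold change -1.04 ± 0.14 (SE), adjusted p = 0.000192, edgeR). In this comparison 25.7% of the 10668 tested genes were called at an adjusted p under 0.05. In the libraries labelled construct 2 it fell to 46.6% (265 ± 12.6 CPM; log2 fold change -1.10 ± 0.14, adjusted p = 5.35e-05, edgeR), where 41.3% of tested genes were called. A call alone is common in both comparisons, with 12.6% and 20.3% of tested genes called lower. dpp itself was not called in either. Counts of whole libraries could miss a change of dpp confined to some cells, and the part of dpp in the retinin result was not tested. In bulk RNA, fewer cells of a type and less RNA per cell cannot be told apart.

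The same fall was seen against the other control group. Against control, at 594 ± 48.0 CPM, retinin was lower in the libraries labelled construct 1 by a log2 fold change of -1.10 ± 0.14 (adjusted p = 9.08e-05, edgeR) and in those labelled construct 2 by one of -1.17 ± 0.14 (adjusted p = 3.66e-05). Of all tested genes, 24.6% and 36.2% were called in these comparisons. Between the control groups themselves, control RNAi over control gave -0.06 ± 0.14 on the log2 scale (adjusted p = 0.731, edgeR), in a comparison that called 45.2% of all genes. The comparisons with each control share the dpp RNAi libraries, so they are not independent of each other.

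No retinin difference between the constructs passed the threshold. Construct 1 over construct 2, within a block, had a log2 fold change of 0.06 ± 0.14 (adjusted p = 0.82, edgeR), and 12% of all genes were called. dpp overexpression was not separated from control, with a log2 fold change of 0.15 ± 0.14 (659 ± 182 against 594 ± 48.0 CPM, adjusted p = 0.466, edgeR; 29.6% of all genes called). That estimate is set by replicate 3, at 868 CPM: without it the log2 fold change was -0.10 ± 0.07 (adjusted p = 0.3). Replicate 3 also stood apart across all genes, with a chi-square per degree of freedom of 60.64 and 52.08 against the other overexpression libraries, while all other pairs within a group lay between 5.22 and 19.4. Over control RNAi, dpp overexpression gave 0.21 ± 0.14 for retinin (adjusted p = 0.208, edgeR; 54.4% of all genes called). With library size set to the photoreceptor counts that difference was 0.39 ± 0.10 and was called (adjusted p = 0.00323), where the median of all genes was 0.24. From lowest to highest mean, the order was construct 2, construct 1, control RNAi, control and dpp overexpression, and among neighbours in it only construct 1 and control RNAi differed past the threshold.

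**Figure D2:**
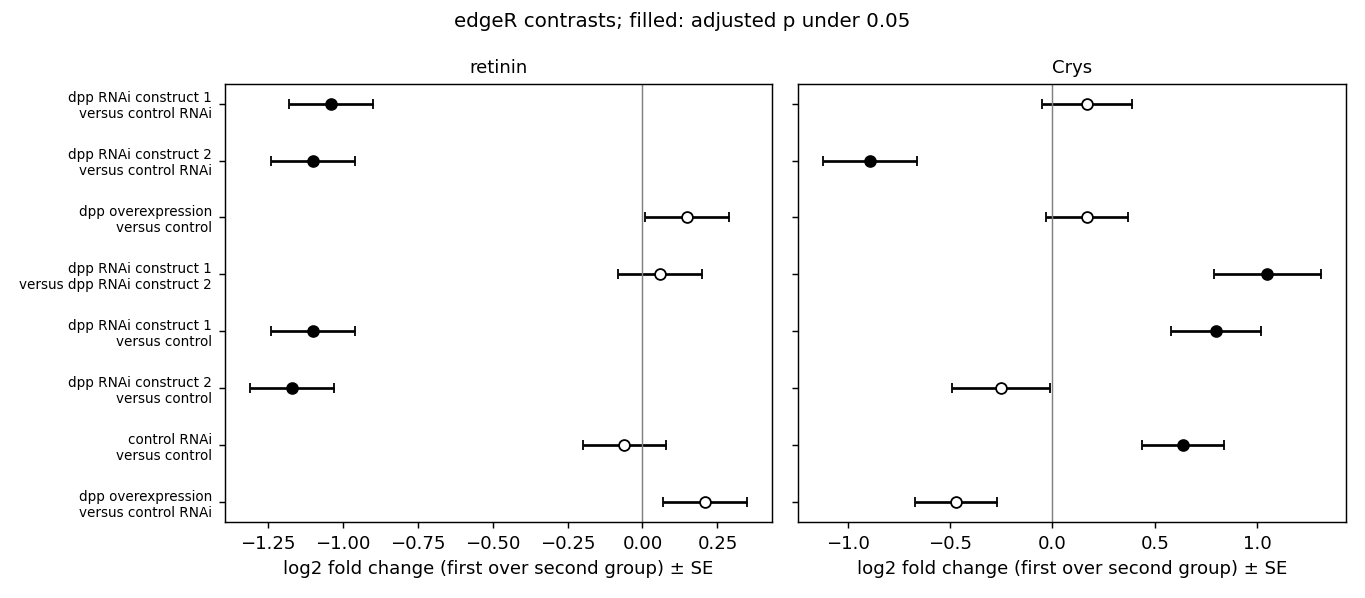
Log2 fold changes of retinin (left) and Crys (right) in 8 comparisons, first group over second, with bars of 1 SE from the edgeR fit; filled points have an adjusted p under 0.05. retinin lies between -1.17 and -1.04 in each of the 4 comparisons of a dpp RNAi construct with a control, and Crys lies between -0.89 and 0.80 in the same ones.

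Crys was far scarcer. It ranked 9142nd of 15682 genes, with 16 to 92 counts per library, and its exact 95% binomial interval had a half-width of 21.0 to 52.6% of the value. Per kilobase of spliced transcript, retinin stood at 712 ± 46.6 CPM per kb in control RNAi and Crys at 1.02 ± 0.0933, with the canonical transcripts of the BDGP6 annotation, of 798 and 2261 bases, as lengths. In that annotation retinin lies on chromosome arm 3L with 2 exons and a coding sequence of 191 codons, and Crys on 2L with 2 exons and 477 codons, and no other gene overlaps either. The counts of the files were made on the older build dm3, so no coordinates are given.

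Crys did not follow retinin. The libraries labelled construct 1 gave 1.85, 2.80 and 3.33 CPM, and those labelled construct 2 gave 0.981, 1.27 and 1.42 CPM. Control RNAi gave 2.50, 2.33 and 2.08 CPM. Control gave 1.21, 1.69 and 1.55 CPM, and dpp overexpression 1.49, 1.54 and 2.11 CPM. The libraries labelled construct 2 were below all of control RNAi, and those labelled construct 1 spread around control RNAi. Control overlapped construct 2 at its low end, and dpp overexpression overlapped control RNAi at its high end.

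Against control RNAi, Crys fell in the libraries labelled construct 2 (1.23 ± 0.225 against 2.30 ± 0.211 CPM; log2 fold change -0.89 ± 0.23, adjusted p = 0.00691, edgeR) and was at 2.66 ± 0.751 CPM in those labelled construct 1 (0.17 ± 0.22, adjusted p = 0.624). The choice of control changed these calls. Against control, at 1.48 ± 0.244 CPM, the libraries labelled construct 2 gave -0.25 ± 0.24 (adjusted p = 0.436, edgeR) and those labelled construct 1 were higher by 0.80 ± 0.22 (adjusted p = 0.0154), while control RNAi itself was higher than control by 0.64 ± 0.20 (adjusted p = 0.0149). The call for construct 1 was lost without construct 1 replicate 2 or 3 or control replicate 1 (adjusted p up to 0.0908), and that for control RNAi without control RNAi replicate 1 or control replicate 1 (0.0547 and 0.0772).

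Within their shared block, the constructs differed in Crys, with no overlap between the libraries. Construct 1 over construct 2 gave 1.05 ± 0.26 on the log2 scale (adjusted p = 0.0144, edgeR), in a comparison that called 12% of all genes. This call also rested on single libraries, since the adjusted p was 0.0518 without construct 1 replicate 2, 0.0751 without construct 1 replicate 3 and 0.0696 without construct 2 replicate 1. dpp overexpression gave 0.17 ± 0.20 over control (adjusted p = 0.566, edgeR) and -0.47 ± 0.20 over control RNAi (adjusted p = 0.0556). In the order of mean levels, construct 2, control, dpp overexpression, control RNAi and construct 1, no pair of neighbours differed past the threshold. dpp overexpression and control RNAi, neighbours in that order, did so in 4 of 13 alternative settings, with adjusted p down to 0.0158 without overexpression replicate 3 (edgeR).

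The number of retinin counts per Crys count brings both genes together within a library. It was 144, 100 and 84.5 in the libraries labelled construct 1 and 282, 197 and 187 in those labelled construct 2. It was 245, 234 and 264 in control RNAi, 445, 361 and 409 in control and 379, 354 and 412 with dpp overexpression. The ratio was thus lowest with construct 1, and construct 2 overlapped control RNAi. Over both constructs the mean log2 ratio was 7.26 and over both control groups 8.30, a difference of -1.05 (exact permutation test over 6 against 6 libraries, two-sided, p = 0.00866). Adjusted over the 8 ratio tests the p is 0.0693, and with control RNAi as the only control the difference was -0.69 (exact permutation p = 0.0952). With control as the only control it was -1.40 (exact permutation p = 0.0238). These pooled tests treat the libraries of both constructs, and in the first test those of both control groups, as alike. Yet construct 1 and construct 2 did not overlap in this ratio, nor did control RNAi and control. Their p-values thus do not measure the spread between groups. With 3 libraries against 3 the smallest p an exact permutation test can give is 0.1, which was reached for 5 of the remaining 7 tests.

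**Figure D3:**
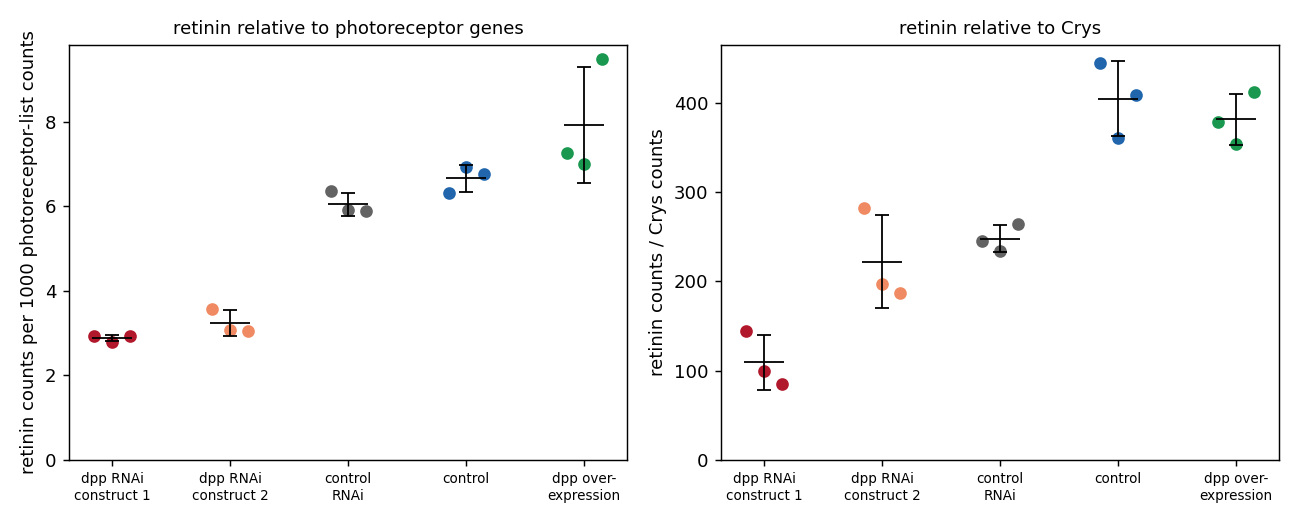
retinin counts per 1000 counts of the photoreceptor genes (left) and retinin counts per Crys count (right) in each library, by group, with means and 1 SD; axes start at 0. Relative to photoreceptor genes the libraries labelled dpp RNAi lie at 2.79 to 3.58 and the others at 5.88 to 9.49, while relative to Crys the libraries labelled construct 2 (187 to 282) overlap control RNAi (234 to 264).

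Among the other lens genes, Cpr72Ec was the closest to retinin. It gave 165, 181 and 165 CPM in the libraries labelled construct 1 and 184, 182 and 190 CPM in those labelled construct 2. Control RNAi gave 323, 290 and 346 CPM. Control gave 226, 250 and 287 CPM, and dpp overexpression 236, 176 and 357 CPM, again with its highest value in replicate 3. All libraries labelled dpp RNAi lay under all control and control RNAi libraries, but not under dpp overexpression replicate 2.

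Cpr72Ec fell against control RNAi by 0.91 ± 0.20 on the log2 scale in the libraries labelled construct 1 (170 ± 9.2 against 320 ± 28.3 CPM, adjusted p = 0.00528, edgeR). It fell by 0.79 ± 0.19 in those labelled construct 2 (185 ± 4.25 CPM, adjusted p = 0.00698). Against control, at 254 ± 30.7 CPM, the log2 fold changes were -0.58 ± 0.20 and -0.46 ± 0.19 and did not pass the threshold (adjusted p = 0.0502 and 0.0864, edgeR). They did pass in 5 and 3 of 13 alternative settings, DESeq2 among them (adjusted p = 0.0107 and 0.0393). Per kilobase, retinin at 712 ± 46.6 CPM per kb in control RNAi exceeded Cpr72Ec at 221 ± 19.5. retinin and Cpr72Ec both lie on 3L, with 13 genes between them in the RefSeq order of the 3482 genes on that arm.

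Cpr66D was scarce, at 1.44 to 3.31 CPM over all libraries, and was lowest in control RNAi (1.61 ± 0.163 CPM). It was higher than control RNAi in the libraries labelled construct 1 (2.60 ± 1.01 CPM, log2 fold change 0.72 ± 0.24, adjusted p = 0.0397, edgeR), a call lost in 8 of 13 alternative settings. In those labelled construct 2 it was at 2.44 ± 0.496 CPM (0.59 ± 0.23, adjusted p = 0.0554). Control RNAi was lower than control in Cpr66D by a log2 fold change of -0.76 ± 0.21 (2.72 ± 0.37 CPM in control, adjusted p = 0.00693). Of the 4 lens genes, 2 were lower and 1 higher with construct 1 against control RNAi, 3 were lower with construct 2, and none was called with dpp overexpression against control, in comparisons that called 25.7%, 41.3% and 29.6% of all genes. The called lens genes thus moved in different directions with construct 1, and the median log2 fold changes were -0.37, -0.84 and 0.08 beside 0, 0.01 and -0.01 over all genes.

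For the 16 regulators of cone cells and of neighbouring eye cells, the median log2 fold changes were negative against control RNAi and positive against control. These 16 include pros, sv and ct, transcription factors used here as cone cell markers. In bulk RNA, their level in cone cells cannot be told from that in other cells. The summed neuron genes, too, were higher in control RNAi than in control (6684 and 4529 CPM), and the part of neurons was not tested. pros was at 486 ± 52.9 CPM in the libraries labelled construct 1, 633 ± 89.6 CPM in those labelled construct 2 and 557 ± 40.3 CPM in control RNAi, and was not called in either comparison (adjusted p = 0.55 and 0.519, edgeR). sv was lower with both (log2 fold changes -0.37 and -0.27, adjusted p = 0.0101 and 0.0317), and ct was lower with construct 1 (-0.30, adjusted p = 0.0322). The comparison with control gave other calls for these genes. pros, at 299 ± 12.3 CPM in control, was higher with construct 1 and 2 by 0.70 and 1.09 (adjusted p = 0.0333 and 0.00236, edgeR), and ct, at 64.1 ± 2.18 CPM, by 0.74 and 0.87 (adjusted p = 7.79e-05 and 1.03e-05). sv gave 0.09 and 0.19 and was not called there (adjusted p = 0.535 and 0.124). Against control RNAi, 6 of the 16 were lower and none higher with construct 1 (median -0.17), and 10 were lower and 1 higher with construct 2 (median -0.28), where 25.7% and 41.3% of all tested genes were called. Against control, 6 of the 16 were higher with each construct, and 1 and 4 lower, with medians of 0.15 and 0.03, beside 24.6% and 36.2% of all genes called. The summed level of the 16 was 1110 to 1346 CPM in the libraries labelled dpp RNAi, 1259 to 1349 CPM in control RNAi and 868 to 915 CPM in control, and none of the 16 was at 0 in a group.

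In the photoreceptor list most calls were lower against control RNAi, while against control they were mostly higher with construct 1 and mostly lower with construct 2. Against control RNAi 8 of 25 were lower and none higher with construct 1 (median -0.12), and 18 were lower with construct 2 (median -0.26), beside 12.6% and 20.3% of all tested genes called lower. Against control 8 were higher and 1 lower with construct 1 (median 0.11), and 4 were higher and 8 lower with construct 2 (median -0.11). In these comparisons 24.6% and 36.2% of all tested genes were called, with 11.7% and 17.9% called lower. ninaE and the arrestin genes Arr1 and Arr2, which serve to end the light response, were called in none of the comparisons of a construct with control RNAi. trpl, a subunit of a light-activated channel, was lower there by log2 fold changes of -0.31 (adjusted p = 0.00135, edgeR) and -0.45 (adjusted p = 3.9e-05).

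Set against the photoreceptor genes of the same library, retinin kept its separation. It made up 2.92, 2.79 and 2.93 counts per 1000 photoreceptor counts in the libraries labelled construct 1 and 3.58, 3.07 and 3.05 in those labelled construct 2. The values were 6.35, 5.90 and 5.88 in control RNAi, 6.31, 6.93 and 6.76 in control and 7.27, 7.01 and 9.49 with dpp overexpression. With library size set to the photoreceptor counts, the log2 fold changes of retinin against control RNAi were -1.07 and -0.90, beside -0.03 and 0.21 over all genes. The libraries labelled dpp RNAi, at 2.79 to 3.58, lay under all others on this scale too, with the lowest of the others at 5.88.

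**Figure D4:**
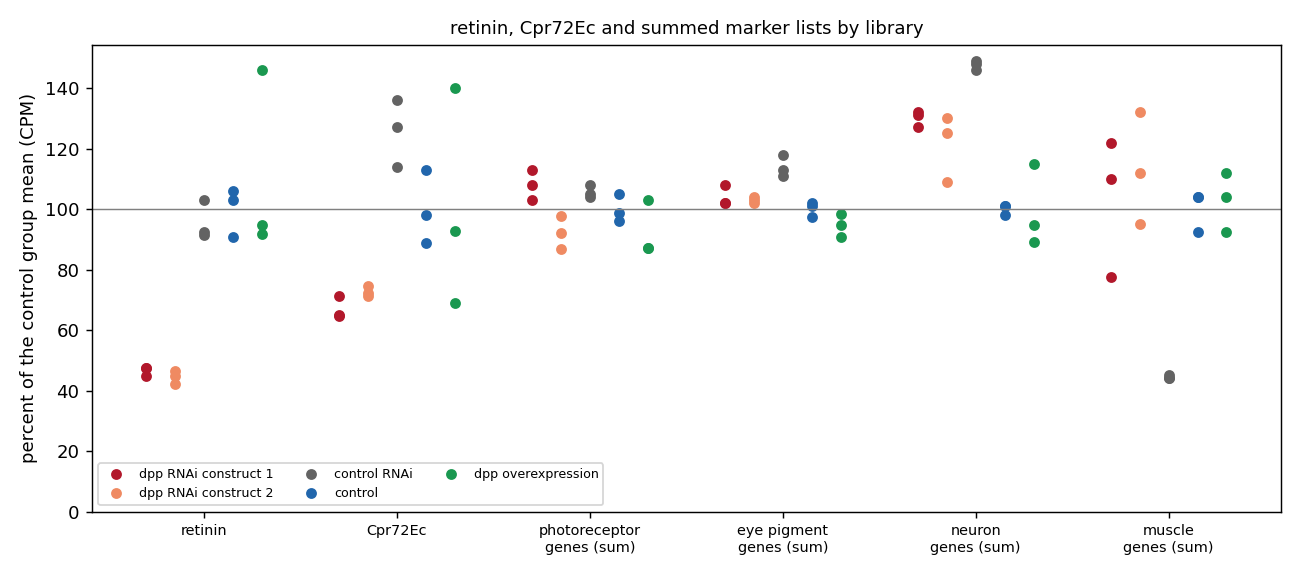
retinin, Cpr72Ec and the summed CPM of 4 marker lists in each library, as a percentage of the mean of the control group (horizontal line at 100), with the axis from 0; points are libraries. retinin lies at 42.3 to 47.4% in the libraries labelled dpp RNAi, where the photoreceptor sum lies at 86.8 to 113%, and the muscle sum is low only in control RNAi, at 44.2 to 45.3%.

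Markers of other tissues moved with the groups as well. Of all tested genes, 25.7% and 41.3% were called against control RNAi with construct 1 and 2, and 24.6% and 36.2% against control. The eye pigment genes, for pigment granules and pigment synthesis, had 6 of 16 lower with construct 1 and 8 lower with construct 2 against control RNAi, and none higher (12.6% and 20.3% of all genes were called lower). Against control, 1 was higher and none lower with construct 1 (median 0.02), and 3 were higher and 4 lower with construct 2 (median -0.07). The muscle genes had 18 of 22 higher with each construct against control RNAi (medians 1.17 and 1.16). There 1395 and 2244 of all 10668 tested genes were called higher. The muscle sum was 5142 to 5271 CPM in control RNAi against 9038 to 15405 CPM in the libraries labelled dpp RNAi. Against control, at 10732 to 12074 CPM, 20 of the 22 muscle genes were not called with either construct. The retinin means were 46.6 and 44.6% of control in that comparison. The 10 neuron genes had 3 and 7 lower against control RNAi and 9 and 6 higher against control, with sums of 4952 to 5956 CPM in the libraries labelled dpp RNAi, 6598 to 6760 CPM in control RNAi and 4433 to 4581 CPM in control. The part of the muscle, pigment and neuron RNA in the retinin result was not tested.

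The remaining marker lists were small, and their counts stand beside 25.7% and 41.3% of all genes called against control RNAi with construct 1 and 2, and 24.6% and 36.2% against control. Against control RNAi, 2 of 7 glia genes were higher and 4 lower with construct 1, and 2 higher and 1 lower with construct 2. Of 10 fat body genes, 1 was higher and 2 lower with each construct. Of 6 haemocyte genes, 1 and 2 were higher and none lower. Of 6 tested homeotic genes, which specify body regions along the head-to-tail axis, 4 were higher with each construct and none lower. Against control none of these genes was lower: with construct 1 and 2, 2 and 6 glia genes, 4 and 6 fat body genes, 1 and 1 haemocyte genes and 1 and 1 homeotic genes were higher.

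Cpr66D and Cpr72Ec belong to the wider Cpr family of chitin-binding cuticle proteins. Of its 70 genes in the files 30 were tested, and against control RNAi 10 were higher and 4 lower with construct 1 and 8 higher and 4 lower with construct 2, beside 25.7% and 41.3% of all genes called. Cpr65Au, the most abundant of them, rose from 321 CPM in control RNAi to 417 and 453 CPM (log2 fold changes 0.38 and 0.49, adjusted p = 0.000546 and 3.05e-05, edgeR). With dpp overexpression none of the 30 was higher and 16 were lower than in control (median -0.49; 16.2% of all genes were called lower), and Cpr65Au fell from 366 to 119 CPM (log2 fold change -1.62, adjusted p = 5.03e-11). retinin and Cpr72Ec were not called in that comparison.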

How the data were processed

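The authors deposited whole-number read counts for each gene symbol, with HTSeq summary lines at the end of each file. Those lines, 14.48 to 20.93% of all entries, were left out of library sizes and tests. The submitters' processing notes name dm3 as the build and list BWA, STAR and HTSeq without versions. Annotation and strand setting are not given in the sources used here. Groups came from the sample titles.

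Counts were tested in R 4.3.3 with edgeR 4.0.16. The filter filterByExpr (minimum count 10) passed 10668 genes, all 4 lens genes among them, and dropped 5014. All 15 libraries entered a robust quasi-likelihood fit with TMM factors and 10 residual degrees of freedom. The p-values of all tested genes were adjusted together by Benjamini-Hochberg and called under 0.05. For correlations, log2 CPM was taken with a prior count of 2. The fit was tested on simulated data. Alternatives were RLE scaling, no scaling, photoreceptor counts as library size, no filter, a replicate block, fits on the compared groups only, DESeq2 1.42.0 and leaving out each replicate. The ratio was tested with scipy 1.17.1 in Python 3.11.15.

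The 2 genes and the marker lists were chosen with earlier results of these data known. Named genes were retinin, Crys, the other lens genes, the 5 genes most like and 2 least like each of retinin and Crys, at most the 4 most abundant members of every other list, and, as cone cell markers, pros, sv and ct. Gene structures came from Ensembl release 115 (BDGP6) and gene order from RefSeq Release 6. Protein and promoter sequences were not analysed here.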

Additional observations from a re-analysis of the deposited data

Results flagged for a closer look

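The Crys level differed between the libraries labelled construct 1 and construct 2, which are meant to act on the same gene, by a log2 fold change of 1.05 ± 0.26 (adjusted p = 0.0144, edgeR; 2.66 ± 0.751 against 1.23 ± 0.225 CPM, n = 3 each). All 3 construct 1 libraries (33 to 37 counts) lay above all 3 construct 2 libraries (16 to 31 counts), in a comparison that called 12% of all tested genes. It drew attention because retinin, measured in the same libraries, differed between the constructs by 0.06 ± 0.14. The call was lost when any of 3 libraries was left out.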

How the results depend on the processing

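The fall of retinin with each construct against each control kept its call in all 13 alternatives per comparison. Leaving out replicates gave ranges of -1.07 to -0.98 (construct 1) and -1.14 to -1.05 (construct 2) against control RNAi and -1.17 to -1.06 and -1.23 to -1.12 against control. Crys with construct 2 against control RNAi also kept its call (-1.02 to -0.76). Leaving out replicates moved Crys to 0.87 to 1.30 for construct 1 over construct 2, 0.62 to 1.05 for construct 1 over control, 0.50 to 0.75 for control RNAi over control and -0.02 to 0.41 for construct 1 over control RNAi, where the sign turned without construct 1 replicate 3. The same moved retinin to between -0.10 and 0.27 for dpp overexpression over control, and the log2 ratio of retinin to Crys to -1.22 to -0.88. That ratio differed by -0.69 with control RNAi alone and by -1.40 with control alone. Scaling to photoreceptor counts turned retinin between the constructs to -0.17 and Cpr66D to -0.09. Other turned signs, none of them called, were Cpr66D without a library (-0.13 to 0.40 between constructs, lowest without construct 1 replicate 1; 0.23 and 0.06 over control without construct 1 replicate 2 or control replicate 2), retinin with dpp overexpression over control RNAi (-0.04 to 0.33, lowest without overexpression replicate 3) and Cpr72Ec with dpp overexpression over control (-0.30 to 0.22, lowest without overexpression replicate 3, with -0.07 and 0.00 without control replicates 1 and 2). The cause was not tested.

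Same-numbered libraries of compared groups had correlations of their deviations from -0.11 to 0.25. Differently numbered libraries were not compared in this way, so these values cannot decide whether the numbers pair the libraries. With the replicate block retinin fell by 1.04 with construct 1 (adjusted p = 0.000314, edgeR), and Cpr72Ec turned to -0.02 with dpp overexpression over control. Photoreceptor scaling called 1762 genes in place of 2744 with construct 1 over control RNAi and 3329 in place of 1283 between the constructs, where leaving out construct 1 replicate 2, construct 1 replicate 3 or construct 2 replicate 1 gave 827, 682 and 619. Photoreceptor scaling gave medians of all genes of -0.23 to 0.24, and the share of calls that were higher went from 47.2 to 3.4% between the constructs and from 50.9 to 86.7% with construct 2 over control RNAi. Without scaling factors that share went from 52.2 to 28.6% with construct 1 over control and from 50.5 to 29.4% with construct 2. Depth limits Crys and Cpr66D, with 16 to 169 counts per library.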

Other observations

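Genes whose pattern was most like that of retinin over the 15 libraries were ranked by Pearson's r of log2 CPM among 10667 other tested genes, as a description, since all points share library depth and scaling. The highest were Gadd34, which encodes a regulatory subunit of a protein phosphatase (r = 0.946), CG5642 (0.945), CG17211 (0.945), Cep97 (0.944) and CG4313 (0.944). Their differences were smaller: Gadd34 was at 102 and 98.3 CPM in the libraries labelled construct 1 and 2 and at 113, 118 and 126 CPM in control RNAi, control and dpp overexpression. CG17211 moved most, from 36.5 CPM in control RNAi to 26.5 and 20.2 CPM. The most opposite were CG5224 (r = -0.975) and Dhpr, a pteridine reductase (-0.968). CG5224 was at 25.6 and 30.1 CPM in the libraries labelled construct 1 and 2 and at 15.7, 15.7 and 13.3 CPM in control RNAi, control and dpp overexpression. Cpr72Ec ranked 201st (r = 0.83), and Crys had an r of 0.08 with retinin.

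For Crys the highest were CG34139 (r = 0.907), CG43462 (0.903), dpr11 (0.9), CG17270 (0.899) and dpr9 (0.898), where dpr11 and dpr9 encode immunoglobulin-domain proteins of the nervous system. The lowest were dgo, a planar polarity gene (-0.922), and ImpE1, an ecdysone-inducible gene (-0.89). ninaE ranked 80th for Crys (r = 0.82) and had an r of -0.12 with retinin. Crys counts were few, from 16 to 92 per library, so its ranks carry counting error.

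The neighbours of retinin on 3L were compared with it. Of its 20 nearest genes 17 were in the files and 6 were tested, and against control RNAi 1 was higher and 1 lower with construct 1, and 2 higher and 1 lower with construct 2, beside 25.7% and 41.3% of all tested genes called. The lower one was in both cases CG13059, named after its values were seen, which control RNAi held at 0.525 CPM and the libraries labelled construct 1 and 2 at 0.169 and 0.149 CPM. A count of 3 per library is 0.134 to 0.267 CPM in the libraries labelled dpp RNAi, so those means are near the floor. With a minimum count of 10, CG13059 passed the filter through groups where it is higher, so nothing is read from its call. Pdh, the photoreceptor dehydrogenase gene, is the most abundant of the retinin neighbours, at 1228 and 1343 CPM in the libraries labelled construct 1 and 2 and 1477 CPM in control RNAi, and was not called (adjusted p = 0.322 and 0.588, edgeR). Of the 20 genes nearest to Crys 18 were in the files and 12 were tested, with 3 higher and 1 lower with construct 1 and 4 higher and 3 lower with construct 2, to be set beside the same shares. Mal-B2, a maltase gene among them, rose with dpp overexpression from 171 to 408 CPM (log2 fold change 1.26, adjusted p = 2.28e-06, edgeR).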
